A study of Homo sapiens with 14 samples.

Results

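The splicing of genes for respiratory complexes I, IV and V was examined in HEK293T, a human embryonic kidney cell line. The 3 WT libraries carry SF3B1 K700K and the 3 MT libraries carry SF3B1 K700E, which the study placed at the endogenous locus of isogenic lines, with no treatment given in the labels. RNA was total RNA made into stranded RNA-Seq libraries, and nothing in the labels says that the libraries of a group came from separate cultures, so p-values measure the spread between these libraries. A table of splice levels cannot show the substitution, so genotypes were taken from the sample labels for WT and from the column names for MT. The table lists 6 MT values per event, and whether the 3 with columns are the 3 labelled MT samples is unknown. Splice events were taken for gene symbols that begin with NDUF, ATP5 or COX followed by a digit, when the mean number of reads over WT and MT was at least 10. The rule gave 523 events in 79 genes, out of 94061 events with as many reads in 10404 genes. Of the 523 events, 41 had the same level in every library, 38 of them at 1 and 2 at 0, and the remaining 482 events in 77 genes were tested. Just inside the read minimum was an NDUFAF7 event with 10 reads, and just outside it an NDUFAF6 event with 9.92 reads.

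Complex I (NADH dehydrogenase) passes electrons from NADH to ubiquinone, complex IV (cytochrome c oxidase) passes them to oxygen, and complex V (ATP synthase) uses the proton gradient that results to make ATP. Most of their subunits are encoded in the nucleus, and dedicated assembly factors put the complexes together in the inner mitochondrial membrane. SF3B1 is a core protein of the U2 snRNP, which recognizes the branch point ahead of a 3′ splice site, and the K700E substitution is known for the use of cryptic 3′ splice sites. The events were cassette exons (313), pairs of mutually exclusive exons (76), alternative 3′ splice sites (35), alternative 5′ splice sites (35) and retained introns (23). They lie on 407 distinct variable segments, so some events share an exon, a junction and its reads. The measurement was the inclusion level, a fraction from 0 to 1 that gives the share of transcripts with the cassette exon, the longer exon, the retained intron or the first of 2 exclusive exons.

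The splice sites below are those of the events with the lowest p in ATP5B and ATP5C1, of 2 closely spaced site pairs in use in both groups, and of the NDUFB5 exon. Each is read 5′ to 3′ on the transcript strand from GRCh38 in lower case. Capitals mark the AG that ends an intron or the GT that begins one. In ATP5B (now ATP5F1B; ENSG00000110955.8), which encodes the catalytic beta subunit of ATP synthase, the upstream 3′ site at chr12:56639300-56639329 (minus strand) belongs to the longer form and the downstream site at chr12:56639189-56639218 to a form that lacks 111 bases of coding exon.

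ATP5B upstream 3′ site: tcagtcttcttttttctcatAGgactacaa

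ATP5B downstream 3′ site: aatacagcgtttcttgtctcAGccattcca

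ATP5B 3′ site of the cassette exon, chr12:56645346-56645375 (minus strand): tccaatatcttttgtctgttAGtcagggac

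ATP5B 3′ site of the exon after it, chr12:56644948-56644977 (minus strand): ctgcgatgcctgtatctaacAGgtgagagc

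ATP5C1 3′ site of the cassette exon, chr10:7806952-7806981 (plus strand): tttcttctaatataataaccAGggattaat

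ATP5C1 3′ site of the exon after it, chr10:7807637-7807666 (plus strand): tgttctgtactttgtttttcAGgtaaagaa

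ATP5G3 tandem 3′ sites, chr2:175181463-175181492 (minus strand): gaccttaAGcctcttttcctccgcAGagag

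NDUFS5 tandem 5′ sites, chr1:39026387-39026416 (plus strand): cacgagcatcggGTagGTaggggctgctta

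NDUFB5 3′ site of the cassette exon, chr3:179615961-179615990 (plus strand): aacacttttttttttatcttAGagattcta

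Of the 20 bases ahead of the AG, 17 are pyrimidines at the upstream and 13 at the downstream 3′ site of ATP5B. The same count is 15 at the ATP5B cassette exon and 12 at the exon after it, and 13 at the ATP5C1 cassette exon and 16 at the exon after it.

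The question was whether these transcripts were spliced differently in MT and WT cells. At an adjusted p under 0.05 (limma on arcsine square-root levels, Benjamini-Hochberg over all 83581 events tested) and a difference above 0.1, 0 of the 482 events were called. Over all events tested, 26 were called (0.0311%). With an adjusted p under 0.05 at any difference, 1 member passed, an ATP5B event, against 0.0371% of all events. At an unadjusted p under 0.05, 15 members passed (13 lower and 2 higher in MT), or 3.11%, against 4.47% of all events, of which 2461 were lower and 1277 higher. WT and MT levels did not overlap in 27 members (16 lower, 11 higher), or 5.6%, against 5.46% of all events. They did not overlap and differed by at least 0.1 in 4 members, all in NDUFAF6, against 1.73% of all events. The members were near or below the background in these counts, except for the 1 event (0.207%) at an adjusted p under 0.05, a share that rests on ATP5B alone.

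The median absolute difference between MT and WT was 0.005 among members and 0.0137 among all events tested. Members also had more reads, with a median of 294.8 per event against 82.4, and fewer of them used both forms: the WT level lay from 0.1 to 0.9 in 79 members (16.4%) and in 26.6% of all events. The size of a difference went with the number of reads. Of 87 members with 10 to 50 reads, 12 differed by 0.1 or more, with a median absolute difference of 0.035. Of 99 with 50 to 200 reads, 1 did so, and of 240 with 200 to 1000 reads and 56 with more, 0 did, with medians of 0.003 and 0.001. The 95% interval of the difference lay within 0.1 of 0 in 387 members (80.3%) and within 0.05 in 326 (67.6%), against 63.2% and 42.2% of all events.

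**Figure D1:**
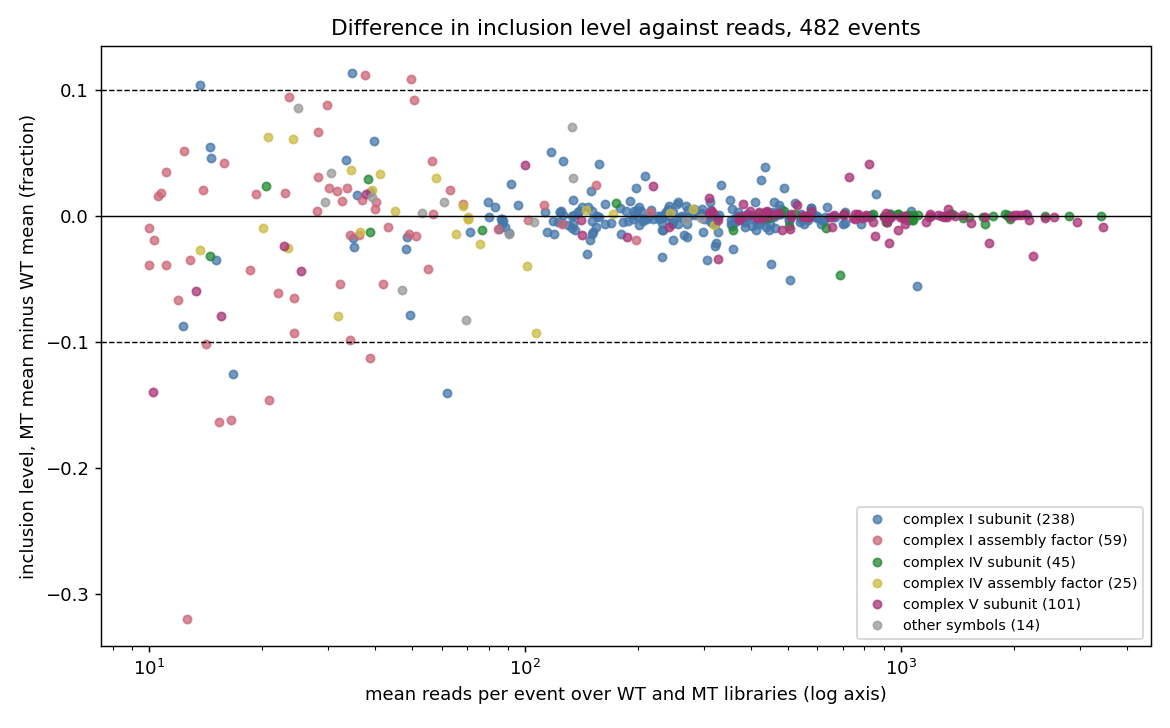
Each point is 1 of the 482 events, with mean reads per event on the horizontal log axis and the MT mean minus the WT mean of the inclusion level (fraction) on the vertical axis; colors give the role of the gene and dashed lines mark 0.1 in either direction. The points narrow toward 0 as reads increase, and 0 of the events with 200 or more reads reach 0.1.

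By role, the 101 events of 14 complex V subunit genes had a median of 748.1 reads and a median absolute difference of 0.00167. The 238 events of 34 complex I subunit genes had a median of 270.2 reads and 0.005, and the 45 events of 9 complex IV subunit genes 983.6 reads and 0.00167. Assembly factors were read less deeply: 59 events of 6 complex I assembly genes had a median of 31.6 reads and an absolute difference of 0.0247, and 25 events of 9 complex IV assembly genes 65.4 reads and 0.0143. At an unadjusted p under 0.05 there were 10 of 101 complex V, 3 of 238 complex I subunit and 2 of 59 complex I assembly events. There were 0 of either complex IV role, and the share over all events was 4.47%. The 10 are not all separate, since overlapping ATP5F1 exons rest on the same skipping reads and the ATP5C1 events share an exon. Levels did not overlap in 10 complex V (9.90%), 9 complex I subunit (3.78%) and 6 complex I assembly events (10.2%), and in 1 complex IV subunit (2.22%) and 1 complex IV assembly event (4%), against 5.46% of all events. The rule also took 11 events of ATP5S and ATP5SL, which are now named DMAC2L and DMAC2 and encode no ATP synthase subunit, 2 of readthrough genes and 1 of COX7A2L, a factor for supercomplexes of the chain. In 56 of the 77 genes, no event had an unadjusted p under 0.05 or levels that did not overlap.

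The beta subunit gene ATP5B had the lowest p of all members. For its alternative 3′ splice site, the level of the longer form was 1 in all 3 WT libraries and 0.986, 0.994 and 0.992 in the MT libraries. Every MT library lay below every WT library, by 0.0093 on average (95% interval 0.0064 to 0.0123 lower; limma adjusted p = 0.022, Benjamini-Hochberg). Reads for the downstream site averaged 0 in WT and 12.7 in MT, out of 3675 and 3218 reads for both forms. These are the authors' means, which for MT cover 6 listed values, as for all reads given here. A count of 0 in a WT library of that depth allows up to 0.0816% of the reads (counting error only). This is a share of reads and is not on the scale of the inclusion level. The bases absent from the shorter form, chromosome 12 from 56639197 to 56639307, make up 37 codons, and GENCODE release 44 lists an exon that begins at the downstream site but no transcript that joins it to this upstream exon. The size is below the 0.1 of the call, and the adjusted p rose above 0.05 with a logit transform (0.177), without a transform (0.861), without a variance trend (0.858), with events of equal level kept (0.136) and with any 1 library left out (0.258 to 0.664).

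Another ATP5B event, a cassette exon of 183 coding bases on chromosome 12 from 56645171 to 56645353, was also lower in each MT library, without passing the test. Its level was 0.991, 0.986 and 0.986 in WT, against 0.970, 0.952 and 0.946 in MT, means of 0.988 ± 0.0029 and 0.956 ± 0.0125 (SD, n = 3). The groups did not overlap, with a difference of −0.0317 (95% interval −0.0413 to −0.022; limma adjusted p = 0.0774, Benjamini-Hochberg). Reads that skip the exon averaged 15.3 in WT and 53.0 in MT, and both forms are annotated. An ATP5B exon of 213 bases, also read deeply, was at 0.997, 0.994 and 0.991 in WT and at 0.992, 0.985 and 0.989 in MT, and these ranges overlapped. The most-read pair of exclusive exons in ATP5B stood at 0.281, 0.326 and 0.267 in WT and 0.302, 0.294 and 0.275 in MT.

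The gamma subunit gene ATP5C1 (now ATP5F1C, ENSG00000165629.19) had a cassette exon with higher values in MT, also without passing the test. This exon of 37 bases near the 3′ end of the coding sequence, known from the tissue-specific forms of the gamma subunit, spans chromosome 10 from 7806974 to 7807010. The level was 0.955, 0.935 and 0.968 in WT, against 0.987, 0.987 and 0.975 in MT. The groups did not overlap, and MT was higher by 0.0303 (95% interval 0.013 to 0.0477), with a limma unadjusted p of 0.0049 and adjusted p of 0.728. Skipping reads averaged 25.0 in WT and 11.3 in MT. A pair of exclusive exons of the same gene was at 0.052, 0.084 and 0.033 in WT and 0.015, 0.018 and 0.033 in MT. ATP5C1 is among the genes that the study lists as spliced differently in its other cell lines, as are NDUFS7, COX20, NDUFV2 and NDUFB5, described below. The match is by gene symbol, and the events described here were not matched to those of the study.

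**Figure D2:**
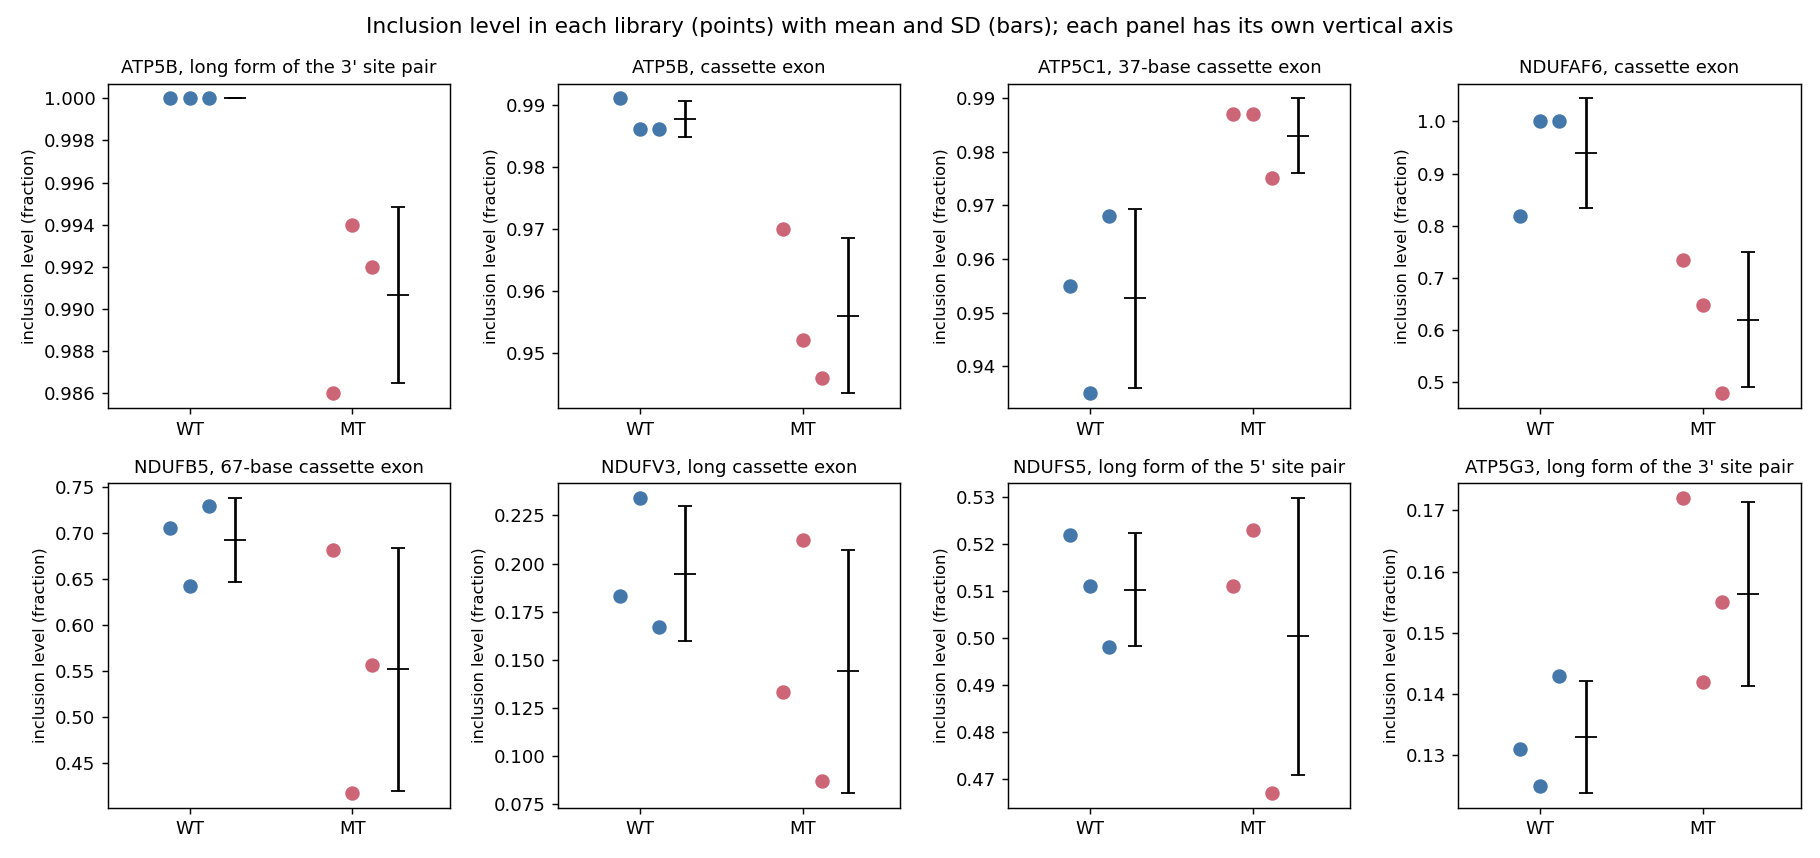
Points give the inclusion level (fraction) of each WT and MT library for 8 events, with the mean and SD (n = 3) as bars; each panel has its own vertical axis. In the top row the WT and MT points do not overlap in any panel, and the axes show that the ATP5B and ATP5C1 panels span less than 0.1, while in the bottom row the points overlap for NDUFB5, NDUFV3, NDUFS5 and ATP5G3.

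Other complex V events at an unadjusted p under 0.05 were in the alpha subunit gene ATP5A1 (now ATP5F1A), the stator genes ATP5F1 (now ATP5PB) and ATP5H (now ATP5PD) and ATP5I (now ATP5ME), which encodes a small membrane subunit. For ATP5F1, an exon of 164 bases was at 0.997, 1 and 1 in WT and 0.996, 0.980 and 0.993 in MT, a difference of −0.0093 at 657.9 reads. An overlapping exon of 23 bases rests on the same skipping reads, which averaged 0.333 in WT and 2.50 in MT. ATP5H was at 0.998, 0.998 and 1 in WT and 0.997, 0.991 and 0.989 in MT. Levels in WT and MT did not overlap for ATP5F1 and ATP5H, but each limma adjusted p was 0.856. ATP5I was at 0.979, 0.964 and 0.969 in WT, against 0.968, 0.943 and 0.935 in MT, with 1 MT library inside the WT range. An alternative 3′ site pair of ATP5F1, 141 bases apart, was at 1, 0.998 and 1 in WT and 0.998, 0.997 and 0.969 in MT, a difference of −0.0113 that was −0.0018 without MT 3. A cassette exon of ATP5A1 was at 1, 1 and 0.989 in WT and 0.980, 0.990 and 0.988 in MT, a difference of −0.0103. The groups overlapped or touched in both, and each limma adjusted p was 0.856. In all 6 events the longer or included form made up nearly all transcripts of both groups, and the differences were 0.022 or less in size. Of the 15 members at an unadjusted p under 0.05, 14 had a WT level above 0.9, as had 292 of all 482 members tested.

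Several complex V genes had both forms in use. The tandem 3′ sites of ATP5G3 (now ATP5MC3, a c-ring subunit gene), 17 bases apart in the 5′ UTR, gave the longer form at 0.131, 0.125 and 0.143 in WT and at 0.172, 0.142 and 0.155 in MT. The MT values lay mostly above, with 1 MT library below the highest WT library, and the difference of 0.0233 had a 95% interval of −0.0352 to 0.0819. The exclusive exons of ATP5G2 (now ATP5MC2), also a c-ring gene, were at 0.444, 0.439 and 0.438 in WT and 0.434, 0.447 and 0.430 in MT at 2195 reads. The retained intron of ATP5D (now ATP5F1D, the delta subunit gene) was at 0.349, 0.343 and 0.285 in WT and 0.295, 0.337 and 0.355 in MT. The 95% intervals of the ATP5G2 and ATP5D differences, −0.0296 to 0.0229 and −0.0482 to 0.0549, lay within 0.1. A cassette exon of ATP5J (now ATP5PF, a stator gene) in the 5′ UTR was at 0.066, 0.222 and 0.172 in WT and 0.115, 0.217 and 0.249 in MT, a difference of 0.0403. The complex V event that differed most was an exon of ATP5L (now ATP5MG, a membrane subunit gene), at 0.231, 0.107 and 0.311 in WT and 0.107, 0.091 and 0.032 in MT, a difference of −0.140 at 10.2 reads (95% interval −0.389 to 0.109). WT and MT overlapped or touched in both.

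Among complex I subunits, the lowest difference was in NDUFB5, a subunit of the membrane arm. Its cassette exon of 67 bases, chromosome 3 from 179615983 to 179616049, was at 0.706, 0.642 and 0.730 in WT and 0.682, 0.417 and 0.556 in MT. MT 1 lay inside the WT range and the other two MT libraries below it, so the groups overlapped, and the difference of −0.141 had a 95% interval of −0.295 to 0.0129 at 62.2 reads (limma adjusted p = 0.856, Benjamini-Hochberg). NDUFS7, which holds an iron-sulfur cluster, had its lowest p at an alternative 3′ site pair 973 bases apart, at 0.054, 0.058 and 0.039 in WT and 0.043, 0.066 and 0.193 in MT. MT 3 alone stood above the rest there. NDUFV2, a flavoprotein-part subunit, had an alternative 5′ site pair 13 bases apart at 0.037, 0.030 and 0.040 in WT and 0.017, 0 and 0.046 in MT.

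NDUFV3 and NDUFS5 were the best-read complex I genes with both forms in use apart from pairs of exclusive exons and retained introns. The NDUFV3 exon of 1095 coding bases, whose inclusion makes the long form of this flavoprotein-part subunit, was at 0.183, 0.234 and 0.167 in WT and 0.133, 0.212 and 0.087 in MT. The ranges overlapped, and the difference of −0.0507 had a 95% interval of −0.101 to −0.0004 (limma adjusted p = 0.856, unadjusted p = 0.0711). Another NDUFV3 exon of 121 bases was at 0.993, 0.989 and 0.990 in WT and at 1 in all MT libraries (limma adjusted p = 0.856); with events of equal level kept in the fit, its adjusted p was 0.0327. The tandem 5′ sites of NDUFS5, a subunit at the intermembrane-space face, are 4 bases apart in the 5′ UTR and were used about equally. Their level was 0.522, 0.511 and 0.498 in WT, against 0.511, 0.523 and 0.467 in MT. The remaining complex I subunit events at an unadjusted p under 0.05 were NDUFA10 and NDUFB8 exons, with differences of −0.009 and −0.006 and a limma adjusted p of 0.856.

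The assembly factor NDUFAF6 (ENSG00000156170.12), needed early in the building of complex I, held 7 of the 13 members that differed by 0.1 or more. The 13 are 2.7% of the members tested, and 5.82% of all events tested differed by as much. NDUFAF6 had 30 tested events with a median of 21.4 reads. The widest difference was a cassette exon at 0.818, 1 and 1 in WT and 0.733, 0.647 and 0.478 in MT, means of 0.939 ± 0.105 and 0.619 ± 0.130 (SD, n = 3). The groups did not overlap, with a difference of −0.320 (95% interval −0.587 to −0.0532), but the event had 12.6 reads and a limma adjusted p of 0.720. Another event on the same exon of 98 bases in the 5′ UTR, chromosome 8 from 94975318 to 94975415, was at 0.455, 0.5 and 0.733 in WT and 0.407, 0.355 and 0.440 in MT. An alternative 3′ site pair 69 bases apart in the 3′ UTR was at 0.721, 0.907 and 0.710 in WT and 0.662, 0.688 and 0.550 in MT. The exon of 124 bases that begins at the downstream site of this pair was at 0.087, 0.043 and 0.111 in WT. In MT it was at 0.140, 0.226 and 0.2, higher in each MT library without passing the test (limma adjusted p = 0.856). Both events lie on the same exon, so they are not separate. Of the 30 events, 16 were lower and 14 higher in MT. In 5 (16.7%) the groups did not overlap, against 5.46% of all events. The 5 include events on the same exon, so they are not all separate. Without NDUFAF6, 6 of 452 members (1.33%) differed by 0.1 or more, and 0 of these had groups that did not overlap.

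Among other complex I assembly factors, a cassette exon of 90 bases in NDUFAF2 was at 1 in all WT libraries and at 0.988, 0.967 and 0.987 in MT, at 198.0 reads (limma adjusted p = 0.743). Skipping reads averaged 0 in WT and 1.83 in MT, and the skipping junction is not annotated.

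**Figure D3:**
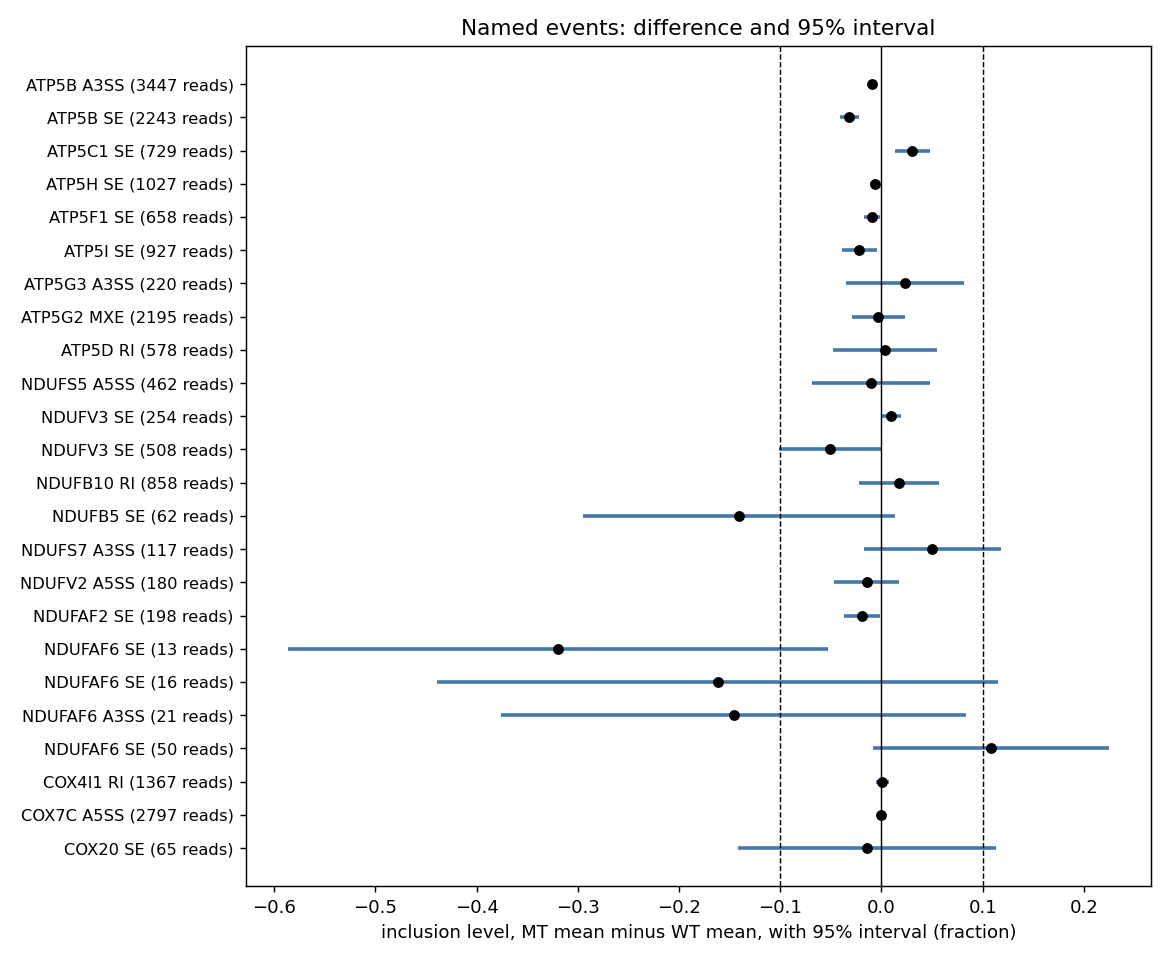
For 24 named events, points give the MT mean minus the WT mean of the inclusion level (fraction) and lines the 95% interval; dashed lines mark 0.1 in either direction and the mean reads stand beside each gene. Intervals are short for ATP5B and COX7C, with 3447 and 2797 reads, and widest for NDUFAF6 at 13 reads, from −0.587 to −0.0532.

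In complex IV genes, differences ran from −0.0467 to 0.029 over 45 subunit events and from −0.0933 to 0.0627 over 25 assembly events. The subunit genes COX7C and COX4I1 held some of the most-read events. A COX7C exon of 144 bases was at 1 in all WT libraries and at 0.999, 1 and 1 in MT at 3411 reads, and a COX4I1 retained intron was at 0.007, 0.007 and 0.015 in WT and 0.007, 0.011 and 0.014 in MT. Among assembly factors, the 115-base exon of COX20, which takes part in the maturation of the COX2 subunit, was at 0.697, 0.848 and 0.921 in WT and 0.750, 0.771 and 0.902 in MT. A COX20 3′ site pair 4 bases apart was at 1, 0.981 and 0.984 in WT and 0.977, 1 and 1 in MT. COX11, a copper-delivery factor, had a 3′ site pair 1603 bases apart at 0.926, 0.849 and 0.922 in WT and 0.849, 0.917 and 0.945 in MT. WT and MT overlapped in each of these.

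Of the 35 pairs of alternative 3′ splice sites among members, 4 (11.4%) had levels that did not overlap, in ATP5B, NDUFAF6, ATP5O and ATP5J2, against 9.29% of all such pairs tested. In 8 of the 35 pairs (22.9%) the sites were 10 to 30 bases apart, as in 18.6% of all such events tested. Over these 8 the difference ran from −0.0037 in ATP5G1 to 0.0667 in NDUFAF5. The groups did not overlap in 2 of the 8, and the same was not counted over all pairs at this spacing, so these have no background. These 2 were ATP5O (now ATP5PO), another stator gene, at 0.013, 0.010 and 0.005 in WT and 0.015, 0.015 and 0.024 in MT, and ATP5J2 (now ATP5MF), a small membrane subunit gene, at 0.043, 0.039 and 0.037 in WT and 0.051, 0.052 and 0.044 in MT. The longer form was thus a minor form in both, and higher in MT by 0.0087 and 0.0093 (limma unadjusted p = 0.210 and 0.502). The less-used form of a member event was annotated in 50.4% of cases and in 42.98% of all events tested, and for the 76 member pairs of exclusive exons in 23.7%, against 23.5% of all pairs.

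For retained introns, libraries differed within the groups. Over the 14 member introns with a WT level under 0.5, the mean level was 0.099, 0.126 and 0.134 in WT, against 0.100, 0.116 and 0.154 in MT. MT 3 was highest for 7, WT 3 for 6 and WT 2 for 1 of them. The same libraries stood apart over all 2292 such introns tested, with means of 0.168 in WT 3 and 0.155 in MT 3 against 0.114 to 0.125 in the other 4. Of the 23 retained introns among members, 0 had an unadjusted p under 0.05 or groups that did not overlap. Over all 3514 retained introns tested, 155 had an unadjusted p under 0.05 and 249 (7.09%) did not overlap. At these shares, 23 introns are too few to set the members apart. The part of these libraries in the intron levels was not tested. As an example, the NDUFB10 intron was at 0.097, 0.177 and 0.132 in WT and 0.093, 0.172 and 0.192 in MT.

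**Figure D4:**
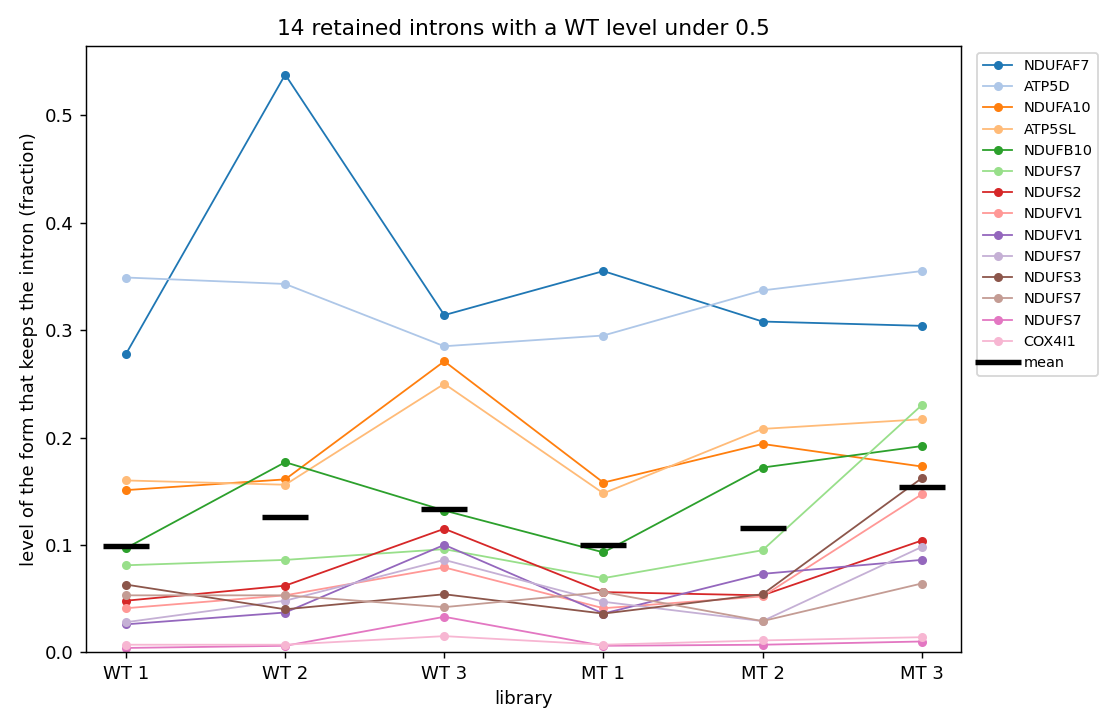
Points give, for each of 14 retained introns, the level of the form that keeps the intron (fraction) in each library, lines join the values of 1 intron, and black bars give the mean. The bars of MT 3 (0.154) and WT 3 (0.134) stand above those of WT 1 (0.099) and MT 1 (0.100).

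Other genes of the respiratory chain were compared from a list of complexes II and III, cytochrome c and assembly factors without these prefixes, with 315 events in 41 genes. The list also held USMG5 (now ATP5MK), a complex V gene that the rule missed under its older symbol. Of the 315, 1 was called, against 0.0311% of all events, and 23 had an unadjusted p under 0.05 (8 lower and 15 higher), against 4.47%. In 27 (8.57%) the levels did not overlap, against 5.46%. Each share stood above that over all events, and the first rests on UQCC1 alone. The other shares count several events of UQCC1 and of ECSIT. Some of these rest on the same reads, so they are not all separate. The called event was a pair of exclusive exons of UQCC1, a complex III assembly factor, at 0.589, 0.530 and 0.638 in WT and 0.951, 0.814 and 0.819 in MT, a difference of 0.276 (95% interval 0.176 to 0.375; limma adjusted p = 0.0414, Benjamini-Hochberg). The call held at a read minimum of 20 and was lost under the other alternatives, with an adjusted p from 0.0509 to 0.822. FOXRED1, a complex I assembly factor outside the rule, had 3′ sites 20 bases apart on chromosome 11 from 126273316 to 126273335, both annotated. Its longer form was at 0, 0.046 and 0.013 in WT and 0.287, 0.180 and 0.206 in MT, a difference of 0.205 (95% interval 0.102 to 0.308; limma adjusted p = 0.104), which did not pass the test. The difference was larger than that of any of the 35 member pairs of 3′ sites. Its sites are shown for comparison with those of ATP5B.

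FOXRED1 upstream 3′ site, chr11:126273294-126273323 (plus strand): tccttaagtcagtttctttcAGgagcttct

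FOXRED1 downstream 3′ site, chr11:126273314-126273343 (plus strand): aggagcttctgtctgcacacAGgagtacct

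ECSIT, also a complex I assembly factor, had an alternative 5′ site at 0.949, 0.943 and 0.982 in WT (limma adjusted p = 0.424). It was at 1 in the 3 MT libraries used. Reads for its shorter form averaged 3.33 in WT and 1.33 in MT. The MT mean covers 6 listed values, so the MT values not used here hold such reads. CMC1, a complex IV assembly factor, had a cassette exon at 0.913, 0.888 and 0.904 in WT and 0.822, 0.807 and 0.793 in MT (limma adjusted p = 0.841). In both genes the groups did not overlap, without passing the test. As a check of the cell line, events with at least 10 reads were found for 3 of 6 epithelial or kidney markers (KRT8, KRT18 and CDH2) and for 0 of 6 B cell and 0 of 5 erythroid markers, and splice events give no expression level.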

How the data were processed

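RNA-Seq splicing of HEK293T cells was analysed from the authors' event table on GRCh38. STAR and StringTie are named in the submitters' processing notes, and Methods name the rMATS model; versions are not given in the sources used here. The deposited inclusion level of each library is a fraction with 3 decimals. The deposited mean reads per group are a signal averaged by the authors, and for MT they average 6 listed values. Only 3 MT values have columns; these were used, without replicate numbers, in column order, and whether they are the study's 3 MT samples is unknown. Library totals are not in the table, so depth is given as reads per event, and intervals do not cover PCR duplication. The authors' own p-values and differences were not used, nor was the DRIP-Seq of Nalm-6 cells.

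Events with at least 10 reads and unequal levels were compared by limma 3.58.1 (R 4.3.3) on arcsine square-root levels, with a variance trend on log reads and Benjamini-Hochberg adjustment. The 95% intervals came from a separate fit of the untransformed level. Its variance trend was on the log of the binomial variance given by level and reads. The alternative without a transform kept the trend on log reads, so the intervals are not from that fit. The comparison was tested on simulated data. Members and lists were chosen with earlier results of these data known. Named events were those called, those with groups apart by 0.1 or more, the 2 most-read per type, and the lowest p in genes that the study lists for other lines; others, including those using both forms, were chosen after their values were seen. Junctions and sequences were read from GENCODE release 44 and GRCh38. Alternatives changed the transform (logit offset 0.01), trend, read minimum (20 or none), equal-level events and libraries.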

Additional observations from a re-analysis of the deposited data

How the results depend on the processing

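The number of respiratory complex I, IV and V gene events called was 0 under all 12 alternatives, while the calls over all events tested ranged from 0 to 37 against 26. The 1 called event of other respiratory chain genes, in UQCC1, became 0 with a logit transform, with the level untransformed, without a variance trend, without a read minimum and with events of equal level kept, and 0 to 0 with 1 library left out. The ATP5B 3′ splice site passed an adjusted p of 0.05 at a read minimum of 20 and without one, and not under the other alternatives. With events of equal level kept, an NDUFV3 exon passed instead. Of 631 recomputed values of 53 named events, 589 kept their direction and side of the threshold, 11 of UQCC1 fell below it, and 31 changed sign, in each case with 1 library left out and for an event that was not called. The differences of these events then ranged from −0.001 to 0.0002 for the COX7C 5′ site, −0.0007 to 0.0037 for the COX4I1 intron, −0.0028 to 0.0467 for the NDUFB10 intron, −0.017 to 0.0203 for the ATP5D intron, −0.041 to 0.019 for the NDUFA10 intron and −0.014 to 0.033 for the ATP5SL intron. They ranged from −0.037 to 0.0225 for the ATP5G1 5′ site, −0.0213 to 0.0067 for the NDUFS5 5′ site and −0.0203 to 0.032 for the COX11 3′ site. For cassette exons they ranged from −0.0033 to 0.0797 in ATP5J, −0.0268 to 0.0602 in NDUFAF6 and −0.0768 to 0.0352 in COX20, and for exclusive exons from −0.0132 to 0.0163 in ATP5B and −0.0083 to 0.0002 in ATP5G2. The cause of these changes was not tested. For 87 members with 10 to 50 reads, the median half-width of the 95% interval of the difference was 0.117, against 0.0025 for 56 members with 1000 reads or more. No paired analysis was possible because the MT columns carry no replicate number.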
